A study of Drosophila melanogaster with 6 samples.

Results

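The UDP-glycosyltransferases (UGTs) are enzymes of the endoplasmic reticulum membrane that move a sugar from a UDP-sugar onto small lipophilic molecules. In insects the sugar is mainly glucose, and the conjugates are more soluble and easier to excrete. The family acts on plant compounds, insecticides, pigments, hormones and odorants, and in flies its members are known chiefly from gut, Malpighian tubule, fat body and sense organs. Genes of the family carry a number for the UGT family, a letter for the subfamily and a last number for the gene. Members were taken as every probe set (the group of array probes that reports 1 transcript) whose single gene symbol, updated to the current one, begins with Ugt and a digit. That gave 35 genes out of 11982 measured by probe sets of 1 symbol. RefSeq lists 35 genes under such symbols, all protein-coding, and each was measured here by exactly 1 probe set, so the choice of the brightest probe set of a gene never came into play.

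The data are 6 one-colour Affymetrix arrays of whole adult Drosophila melanogaster females. The stock CanS (Canton-S, a wild type) gave 3 arrays and the Calment1/4 mutant the other 3. The mutant had been isogenized into a background called CS10, so genotype and stock differ together between the groups and cannot be told apart. Both stocks were kept at 25 °C on standard medium with no treatment, each array carries RNA pooled from 30 to 35 flies, the age in days is not given, and the titles call the arrays biological replicates. The series' title places the mutant in work on longevity and oxidative stress resistance, and here the question is how UGT transcripts compare in the 2 stocks. No gene in the tables used here is named Calment, so the mutated gene has no value and the labels were not checked through it.

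Over all tested probe sets, pairs of arrays had Pearson correlations of 0.991 to 0.998. Yolk and eggshell genes, which mark adult females, were bright (16 measured of 20 listed, median log2 signal 12.94), and 20 testis and accessory gland genes were dim (median 3.63, highest 5.17). Arrays of the same stock differed in tissue markers. Around each gene's mean over the 6 arrays, the yolk and eggshell median was -0.39 on Calment1/4 replicate 1 and -0.65 on CanS replicate 3, against 0.11 to 0.34 on the other 4 arrays. The median of the 13 gut markers was -0.02, -0.24 and -0.29 in Calment1/4 against 0.23, 0.16 and 0.37 in CanS. Of the 13 differences 12 were below 0, beside 49.8% over all probe sets, and none passed the test used below. The list did not move evenly. The protease genes alphaTry, betaTry, epsilonTry and Jon65Aiii lay between -0.04 and 0.04, while the maltase genes Mal-A1 (-1.47) and Mal-A6 (-1.87) were furthest below 0.

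Signals differed widely across the UGT family. The values are log2 signals, and the mean over the 6 arrays ran from 3.40 for Ugt35E1 to 9.70 for Ugt316A1, with a family median of 6.32 beside a median of 5.88 over all 18769 probe sets tested. A probe set's signal depends on its own probes as well as on the transcript, so signals of different genes are given as a description and no order of transcript abundance is read from them. In both stocks 20 of the 35 members lay above the median of all probe sets.

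**Figure D1:**
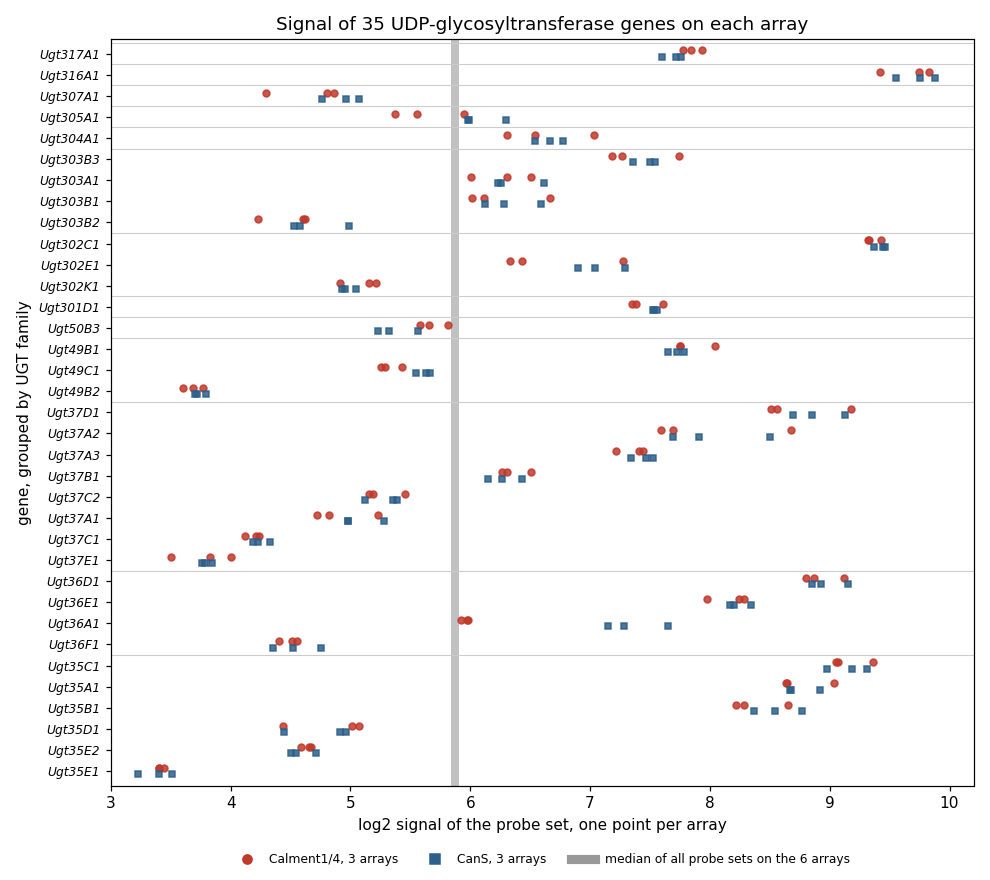
Each row is 1 UDP-glycosyltransferase gene, grouped by UGT family, and each point is the log2 signal on 1 array (circles for 3 Calment1/4 arrays, squares for 3 CanS arrays). The grey band spans the medians of all probe sets, 5.84 to 5.91. Of the 35 genes, only for Ugt36A1 do the means of the 2 groups stand over 1 log2 unit apart, with Calment1/4 at 5.92 to 5.98 and CanS at 7.15 to 7.65.

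The 35 members fall into 13 UGT families, 7 of which hold 1 gene each. The Ugt37 family is the largest with 8 genes, and its log2 signals ran from 3.79 (Ugt37E1) to 8.82 (Ugt37D1). The 6 genes of the Ugt35 family ran from 3.40 to 9.16. Its dim members were Ugt35E1, Ugt35E2 (4.61) and Ugt35D1 (4.81). Its bright members were Ugt35B1 (8.47), which is known from the antenna, Ugt35A1 (8.76) and Ugt35C1 (9.16), formerly Ugt86Dd and known for its part in the resistance of larvae to nicotine. The 4 Ugt36 genes stood at 4.52 (Ugt36F1), 6.66 (Ugt36A1), 8.20 (Ugt36E1) and 8.95 (Ugt36D1), and Ugt36E1 is known from olfactory neurons, where it affects the discrimination of sex pheromone.

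The 4 Ugt303 genes spanned 4.59 (Ugt303B2) to 7.43 (Ugt303B3), the 3 Ugt302 genes 5.03 (Ugt302K1) to 9.39 (Ugt302C1) and the 3 Ugt49 genes 3.71 (Ugt49B2) to 7.78 (Ugt49B1). Among the genes that are alone in their family, Ugt316A1 (9.70), Ugt317A1 (7.77), Ugt301D1 (7.49) and Ugt304A1 (6.64) lay above the median of all probe sets. Ugt305A1 (5.86), Ugt50B3 (5.53) and Ugt307A1 (4.79) did not do so in both stocks. Probe sets of Ugt36E1, Ugt37D1 and Ugt50B3 carry the ending that the manufacturer gives to sets whose probes can match several transcripts, although the platform table names 1 gene for each.

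One UGT gene differed between the stocks. Ugt36A1, formerly named Dot (dorothy) and known for an enhancer that labels blood-forming organs and the pericardial cells beside the heart, fell in Calment1/4. Its log2 signal was 5.98, 5.97 and 5.92 on the 3 Calment1/4 arrays and 7.15, 7.28 and 7.65 on the 3 CanS arrays. The groups did not overlap, and the lowest CanS array stood 1.17 above the highest Calment1/4 array. The CanS mean of 7.36 ± 0.26 compared with a Calment1/4 mean of 5.96 ± 0.03 (SD, n = 3 each), a difference of -1.40 (SE 0.13) or 2.65-fold, with an adjusted p of 0.00245 in limma. Its percentile rank among all probe sets was 50.7 in Calment1/4 and 62.1 in CanS, so the lower value was not at the array floor. Whether it lay above the background of its own probes was not tested. RNA of whole females cannot tell fewer cells that express the gene from less RNA per cell.

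Of all probe sets tested, 0.464% passed an adjusted p of 0.05 (87 of 18769), with 0.266% higher and 0.197% lower in Calment1/4, beside 1 of the 35 UGT genes. Among the 37 probe sets that fell, 6 had a larger fall than Ugt36A1, and among all tested probe sets 31 did. Of the probe sets that passed, 20 had a smaller adjusted p in limma. Leaving out each array in turn gave differences of Ugt36A1 between -1.51 and -1.26 with adjusted p from 0.00203 to 0.0240 in limma, and the call held each time. A fit with the gut marker median of each array as a covariate ended it (-1.06, SE 0.26, adjusted p = 0.0890 in limma). The 3 Calment1/4 arrays all lay below the 3 CanS arrays in that covariate, so it and the genotype are largely the same contrast.

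**Figure D2:**
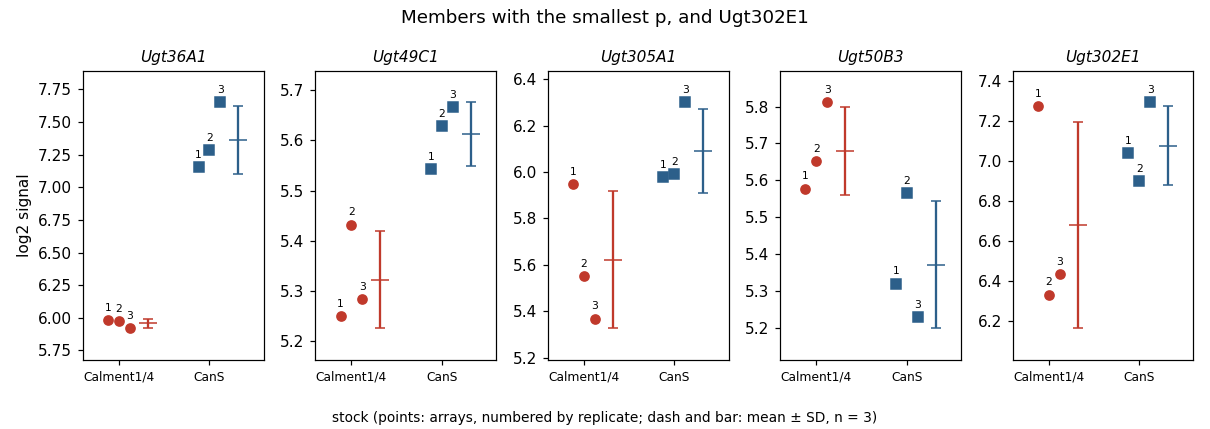
Log2 signal of the 4 members with the smallest p and of Ugt302E1, with 1 point per array numbered by replicate and the mean ± SD (n = 3) beside each group. The scales differ between panels. Ugt36A1 spans 5.92 to 7.65, and the Ugt302E1 value of Calment1/4 replicate 1, 7.27, lies among the CanS arrays.

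The other Ugt36 genes did not pass the test. Ugt36D1 differed by -0.05, Ugt36F1 by -0.05 and Ugt36E1 by -0.07 on the log2 scale, with 95% intervals from -0.32 to 0.22, from -0.31 to 0.20 and from -0.31 to 0.17. Set against the mean of these 3 genes on the same array, Ugt36A1 stood at -1.24, -1.18 and -1.30 in Calment1/4 and at -0.13, 0.10 and 0.36 in CanS. The means of this within-array value differed by -1.35, given as a description, since the gene was chosen for its difference. Ugt36D1, Ugt36E1 and Ugt36F1 lie side by side on chromosome arm 2L, while Ugt36A1 lies elsewhere on the same arm with no UGT gene next to it.

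The genes around Ugt36A1 were looked at after its values were known. Of the 5 protein-coding genes on either side in the RefSeq order, 7 had a probe set of their own, and 0 passed the threshold in limma, with 0 at an unadjusted p under 0.05. Their log2 differences ran from -0.11 for odd, the transcription factor gene odd skipped next to Ugt36A1, to 0.16 for CG15418 on its other side. The nearest measured gene beyond CG15418 was for (foraging), a cGMP-dependent protein kinase, at -0.01.

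Because of the known sites of the Dot enhancer, marker genes of haemocytes and of pericardial nephrocytes were added after the data were seen. Over all probe sets 49.8% of differences were below 0, 0.197% fell past the threshold and 12.6% had groups that did not overlap. Of 12 haemocyte genes 9 were below 0, with a median difference of -0.19, and 1 fell. That gene was Sr-CI, a scavenger receptor, at 6.08, 5.39 and 5.78 in Calment1/4 and 6.94, 7.10 and 6.92 in CanS (-1.24, adjusted p = 0.0180 in limma). The other 11 did not pass. Of these, PPO1 (-0.70), eater (-0.64) and NimC1 (-0.42) were lower in value, with groups that did not overlap. PPO2 (-0.30) and Hml (-0.29) were lower with groups that overlapped, while He, crq and Pvr lay between -0.08 and -0.03. The GATA factor gene srp (serpent) went the other way at 0.27, with groups that did not overlap (adjusted p = 0.606 in limma), and ush and Pxn stood at 0.10 and 0.07. Of 7 nephrocyte genes 5 were below 0, with a median of -0.05, and 1 fell. It was Amnionless, a partner of the endocytic receptor Cubilin, at 4.33, 4.06 and 3.99 in Calment1/4 and 4.84, 5.19 and 4.97 in CanS (-0.87, adjusted p = 0.0257 in limma). These values were dim, at percentile ranks of 25.9 in Calment1/4 and 41.2 in CanS. The mean over the 6 arrays, 4.56, lay below the highest of the testis and accessory gland genes (5.17). Cubn, which encodes Cubilin, stood at -0.27 (adjusted p = 0.406 in limma), with groups that did not overlap, and Hand at -0.15. In the opposite direction sns (sticks and stones) stood at 0.25 (adjusted p = 0.619 in limma), with groups that did not overlap. The others were kirre (-0.05), pyd (-0.01) and Klf15 (0.00).

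Both of those calls ended in several alternatives, with all 6 arrays kept and with single arrays left out. With the replicate block the adjusted p was 0.121 for Sr-CI and 0.163 for Amnionless in limma. With the gut covariate Sr-CI stood at -0.86 (adjusted p = 0.225 in limma) and Amnionless at -0.65 (adjusted p = 0.239 in limma). Amnionless passed without Calment1/4 replicate 1 and lost its call without each other array (-0.95 to -0.78, adjusted p from 0.0560 to 0.152 in limma). Sr-CI lost its call without Calment1/4 replicate 3 and without each CanS array (-1.27 to -1.18, adjusted p from 0.0515 to 0.0894 in limma). The list medians by array were 0.00, -0.23 and -0.22 in Calment1/4 and 0.27, 0.01 and 0.08 in CanS for haemocytes, and -0.09, -0.05 and -0.09 against 0.18, 0.02 and 0.03 for nephrocytes. The part of these cells in the Ugt36A1 difference was not tested.

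No other member passed the threshold with all 6 arrays. With Ugt36A1, 4 of 35 members reached an unadjusted p under 0.05, 3 of them lower and 1 higher. Over all probe sets 7.67% did so, 3.96% lower and 3.71% higher, and nothing is read from the count. Ugt49C1 had values of 5.25, 5.43 and 5.28 in Calment1/4 and 5.54, 5.63 and 5.67 in CanS. The groups did not overlap, but the means differed by only -0.29 (SE 0.08, adjusted p = 0.328 in limma).

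Ugt305A1 stood at 5.95, 5.55 and 5.37 in Calment1/4 and 5.98, 5.99 and 6.30 in CanS. Calment1/4 replicate 1 came within 0.03 of the lowest CanS array, and the difference of -0.47 (SE 0.16) had an adjusted p of 0.444 in limma. Ugt50B3 went the other way, with 5.58, 5.65 and 5.81 in Calment1/4 and 5.32, 5.56 and 5.23 in CanS. Its groups were separated by 0.01, at a difference of 0.31 (SE 0.11, adjusted p = 0.499 in limma).

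Groups that did not overlap were found for 5 members, 2 higher (Ugt50B3 and Ugt317A1) and 3 lower (Ugt36A1, Ugt49C1 and Ugt305A1). The share among all probe sets was 12.6%, with 6.36% higher and 6.27% lower, so the count of members is close to it. Ugt317A1 stood at 7.94, 7.85 and 7.77 in Calment1/4 and 7.76, 7.60 and 7.72 in CanS (0.16, SE 0.08, adjusted p = 0.773 in limma). A change of at least 1.5-fold was reached by 1 member, Ugt36A1, beside 1.56% of all probe sets.

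The 95% interval of the difference lay within a 2-fold change in either direction for all 34 members other than Ugt36A1, and within a 1.5-fold change for 30 of them. The median width to either side was 0.27 log2 units, and the widest was 0.69 (Ugt37A2, from -0.74 to 0.65).

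**Figure D3:**
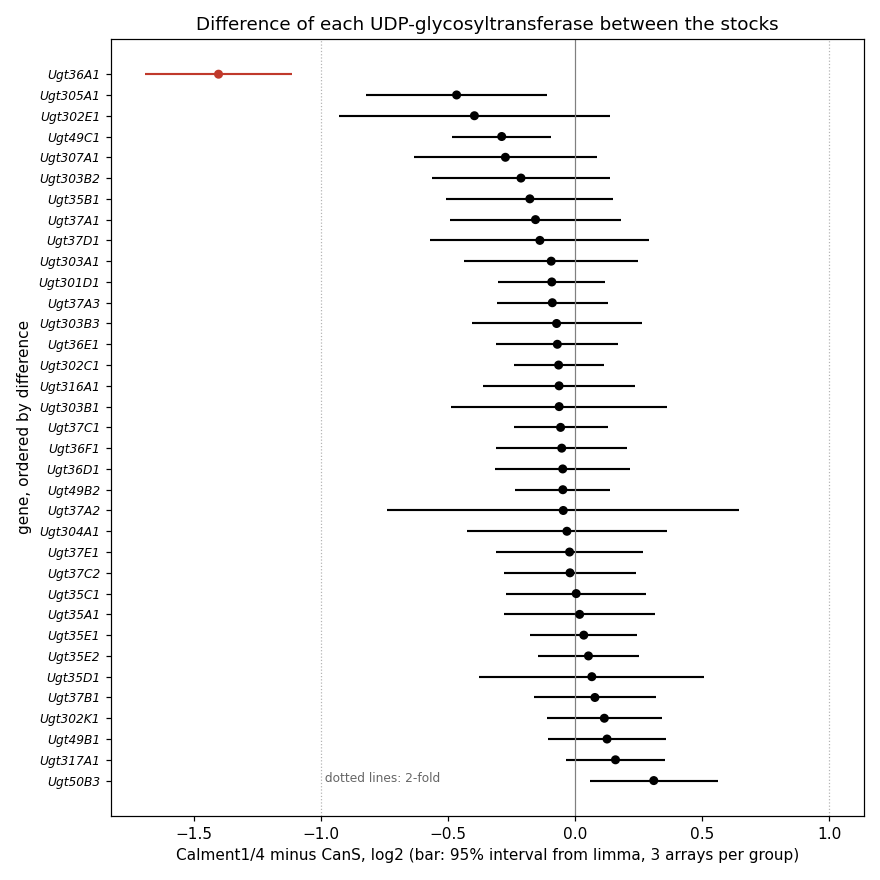
Difference in log2 signal between Calment1/4 and CanS for each of the 35 genes, ordered from the lowest to the highest, with the 95% interval from limma (3 arrays per group). Ugt36A1 at -1.40 is the one gene past the threshold, and the intervals of the other 34 lie inside the dotted lines at a 2-fold change.

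As a family the UGT genes stood slightly below 0. The differences were below 0 for 25 of 35 members, beside 49.8% of all probe sets, and the median was -0.06 beside 0.00 over all probe sets. Members vary together from array to array, so the 25 are not independent. Leaving out single arrays moved the count of members below 0 to between 18 (without CanS replicate 3) and 28 (without CanS replicate 1). The family median moved to -0.12 when Calment1/4 replicate 1 was left out and to -0.10 when CanS replicate 1 was. It stood at -0.02 when Calment1/4 replicate 2, Calment1/4 replicate 3 or CanS replicate 3 was left out. With the yolk and eggshell median of each array as a covariate 19 members were below 0 and the family median was -0.01. With the gut covariate 10 members were below 0 and the median turned to 0.27.

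By UGT family, 7 of 8 Ugt37 genes, 4 of 4 Ugt303 genes and 4 of 4 Ugt36 genes were below 0, and 5 of 6 Ugt35 genes were above it. The medians were -0.05 for Ugt37, -0.08 for Ugt303, -0.06 for Ugt36 and 0.03 for Ugt35, and apart from Ugt36A1 no gene of these families passed. The smallest p among the Ugt303 genes was that of Ugt303B2 (-0.21, adjusted p = 0.888 in limma). It was Ugt35B1 among the Ugt35 genes (-0.18, adjusted p = 0.908) and Ugt37A1 among the Ugt37 genes (-0.16, adjusted p = 0.929). Differences in direction between the UGT families were not tested. Ugt35C1 stood at 0.00 with a 95% interval from -0.27 to 0.28, and Ugt35A1 at 0.02.

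Among the genes alone in their family, Ugt307A1 had values of 4.87, 4.29 and 4.81 in Calment1/4 and 4.76, 5.07 and 4.96 in CanS, overlapping groups with a difference of -0.28 (adjusted p = 0.810 in limma). Ugt301D1 (-0.09), Ugt316A1 (-0.06) and Ugt304A1 (-0.03) did not pass, with adjusted p from 0.939 to 0.995 in limma. In the Ugt302 family Ugt302C1 was at -0.07 and Ugt302K1 at 0.11, and in the Ugt49 family Ugt49B2 was at -0.05 and Ugt49B1 at 0.13.

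Ugt302E1 was the member whose call depended on 1 array. It stood at 7.27, 6.33 and 6.44 in Calment1/4 and at 7.04, 6.90 and 7.29 in CanS. Replicate 1 of the mutant thus lay with the CanS arrays, and replicates 2 and 3 below them all. The difference with all arrays was -0.40 (SE 0.23, adjusted p = 0.819 in limma). Without Calment1/4 replicate 1 it was -0.69 (SE 0.12, adjusted p = 0.0366 in limma), and without both that array and CanS replicate 3 it was -0.59 (adjusted p = 0.0467 in limma). These fits call 281 and 228 probe sets in place of 87. With the gut covariate its sign turned (0.87, adjusted p = 0.106 in limma).

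Array-to-array variation within a stock was larger for UGT genes than for the median probe set and had a shared pattern. The within-group SD had a median of 0.17 log2 units over the members and 0.12 over all probe sets. Within Calment1/4, replicate 1 was the highest array for 27 of 35 members, beside 44.7% of all probe sets. Within CanS, replicate 3 was the highest for 19 of 35, beside 31.3%. Both held at once for 18 members, or 51.4%, and for 21.4% of all probe sets.

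Ugt37A2 varied most, with a within-group SD of 0.52 that exceeded those of 99.0% of all probe sets. Its values were 8.68, 7.69 and 7.59 in Calment1/4 and 7.69, 7.91 and 8.50 in CanS, so that Calment1/4 replicate 1 and CanS replicate 3 were the highest arrays of their groups by 0.99 and 0.60. Ugt302E1 (SD 0.39), Ugt37D1 (0.31), Ugt303B1 (0.30) and Ugt304A1 (0.28) also had their highest values on these 2 arrays within each stock. Ugt35D1 (0.32) had the reverse in the mutant, with 4.44 on replicate 1 against 5.01 and 5.07. Ugt302C1 varied least, with an SD of 0.05 and values between 9.32 and 9.46 on all 6 arrays.

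**Figure D4:**
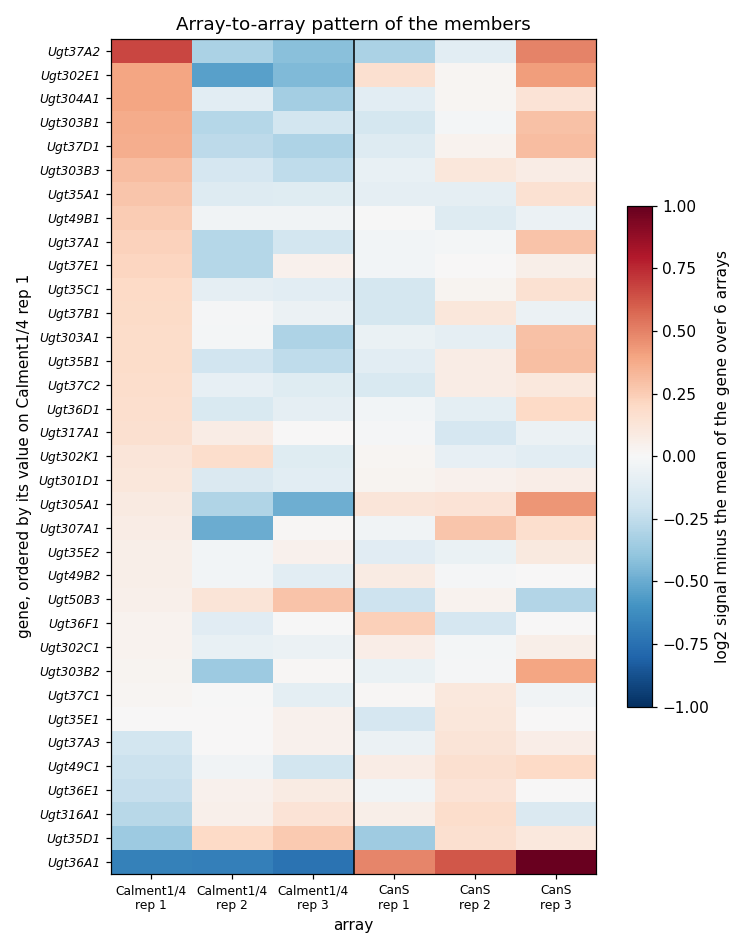
Log2 signal of each of the 35 genes on each array minus that gene's mean over the 6 arrays (colour scale from -1 to 1), with genes ordered by their value on Calment1/4 replicate 1. Of the 35 rows 29 are above 0 on Calment1/4 replicate 1 and 28 on CanS replicate 3, while Ugt36A1 in the bottom row is blue on all 3 Calment1/4 arrays and red on all 3 CanS arrays.

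The same arrays stood out in tissue markers. The median of the UGT genes around each gene's mean was 0.12, -0.09 and -0.10 in Calment1/4 and -0.04, 0.02 and 0.10 in CanS. Calment1/4 replicate 1 and CanS replicate 3, the 2 highest, were the 2 lowest for yolk and eggshell genes and for the 16 female germline genes (-0.16 and -0.19 against 0.01 to 0.25 elsewhere). Within each stock they were also the highest for gut markers. The 6 Malpighian tubule markers had medians of -0.07, -0.08 and -0.15 on the Calment1/4 arrays against 0.00, 0.13 and 0.08 on the CanS arrays. The 6 fat body markers had -0.16, -0.27 and -0.17 against -0.05, 0.33 and 0.30. The 11 antennal markers were highest on CanS replicate 3 (0.39) and between -0.16 and 0.01 elsewhere. Single marker genes past the threshold, beside 0.464% of all probe sets, were fit, of the fat body (-2.17), and the chorion gene Cp18 (0.74). Of the 6 fat body genes 4 were below 0, beside 49.8% of all probe sets, while AkhR (0.56) and FASN1 (0.27) were above it. Of the 16 yolk and eggshell genes 7 were below 0. The call of fit was lost when Calment1/4 replicate 2, Calment1/4 replicate 3 or CanS replicate 1 was left out. That of Cp18 was lost when replicate 2 or 3 of either stock was. With all 6 arrays kept, fit did not pass with trend and robust eBayes (adjusted p = 0.0714 in limma). Cp18 then did not pass with the filter on dim probe sets, the replicate block or the gut covariate (adjusted p from 0.0518 to 0.193 in limma). The part of tissue proportions in the UGT values was not tested.

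**Figure D5:**
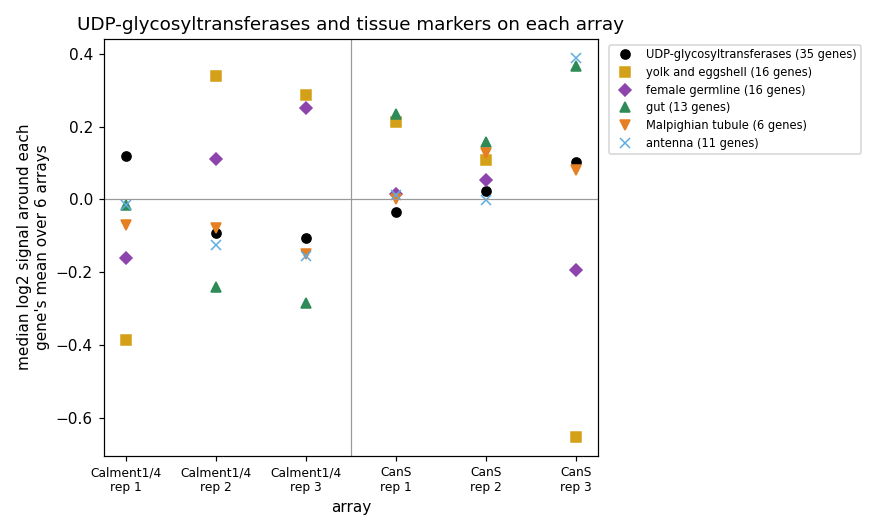
Median log2 signal on each array, around each gene's mean over the 6 arrays, for the 35 UDP-glycosyltransferases and for 5 lists of tissue markers. The yolk and eggshell list is lowest on Calment1/4 replicate 1 (-0.39) and CanS replicate 3 (-0.65), where the UDP-glycosyltransferases are highest (0.12 and 0.10).

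With no other protein-coding gene between them, 22 members lie in 7 runs, and 13 lie alone. The largest run, 6 genes on chromosome arm 3R, holds Ugt35E1, Ugt35E2, Ugt35B1, Ugt35A1, Ugt304A1 and Ugt303A1, with differences from -0.18 to 0.05 and none past the threshold. Another run on 3R holds Ugt302K1 (0.11), Ugt302E1 (-0.40) and Ugt302C1 (-0.07), and on 2R Ugt49B1 (0.13) and Ugt49C1 (-0.29) lie side by side. Arm 3R carries 17 members, 2L 11, 2R 5 and 3L 2.

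Genes that supply the sugar donor, move sugars and conjugates, or regulate the response to foreign compounds were compared as a list of 21, of which 18 were measured. None passed the threshold in limma, beside 0.464% of all probe sets, and the median difference was 0.01. At an unadjusted p under 0.05 in limma there was 1 gene of the 18, beside 7.67% of all probe sets. That gene was Keap1, the inhibitor of the stress regulator cnc, at 7.82, 7.84 and 7.71 in Calment1/4 and 7.60, 7.61 and 7.54 in CanS. The groups did not overlap for 2 of the 18 genes, Keap1 and cnc, beside 12.6% of all probe sets. The Keap1 difference of 0.21 (SE 0.08) had an adjusted p of 0.520 in limma. The next smallest p was that of maf-S, the partner of cnc, at 0.15 (adjusted p = 0.833 in limma), and cnc itself was at 0.10 (adjusted p = 0.910 in limma). UGP, which makes UDP-glucose, was at -0.19, and sgl, the UDP-glucose dehydrogenase, at 0.14, neither past the threshold. The UGP probe set was dim, with a mean log2 signal of 4.00 (percentile rank 20.9 in Calment1/4 and 24.8 in CanS) against 9.65 for sgl.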

How the data were processed

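The authors deposited 1 log2 value for each probe set on each array. Per the submitters' processing notes affy 1.36.0, RMA and MAS5 were used, with no role given for each. Such summaries are normalized between arrays, so a shift shared by most transcripts would not be seen, and dim values may be drawn towards a floor. Detection calls were not used here. Of 18952 probe sets, 183 controls were left out, which leaves 18769. Exactly 1 platform symbol was held by 13647, of which 13544 were updated through gene identifiers to RefSeq (Release 6 plus ISO1 MT), which also gave gene order. Older names come from its synonyms.

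Differences between the stocks come from limma 3.58.1, run in R 4.3.3 with lmFit and then eBayes, on all 6 arrays with genotype as the term (two-sided), and Benjamini-Hochberg adjustment over 18769 probe sets and a threshold of 0.05. The number of arrays limits the precision, and nothing beyond the titles says how replicates were separated. Values in all arrays are given for members past the threshold, at an unadjusted p under 0.05 or gaining a call in an alternative, and others that illustrate a pattern were chosen after their values were seen. Members, lists and tests were chosen with earlier results of these data known. The alternatives were normalization, a filter on dim probe sets, trend and robust eBayes, array weights, the replicate block, averaging the probe sets of a gene, tissue covariates, a stricter threshold of 0.01 and left-out arrays. Figures were drawn with matplotlib 3.10.9.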

Additional observations from a re-analysis of the deposited data

How the results depend on the processing

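The call of Ugt36A1 held in 16 of 17 alternatives (-1.51 to -1.26, adjusted p from 0.000442 to 0.0365 in limma) and ended with the gut covariate (-1.06, adjusted p = 0.0890 in limma), which left 0 UGT genes past the threshold and moved the family median to 0.27. Averaging the probe sets of a gene could not move the Ugt36A1 difference, since each member has 1 probe set. The threshold of 0.01 used the main fit. Leaving out single arrays gave 1 to 2 UGT genes past the threshold and medians from -0.12 to -0.02, and without Calment1/4 replicate 1 and CanS replicate 3 together it gave 2, the second being Ugt302E1. The count over all probe sets ran from 38 (without Calment1/4 replicate 2) to 281 (without Calment1/4 replicate 1) with single arrays left out. Leaving out Calment1/4 replicate 3 gave 45 and leaving out CanS replicate 3 gave 54. It was 228 without Calment1/4 replicate 1 and CanS replicate 3 together, 337 with array weights (132 higher and 205 lower), 227 with the yolk and eggshell covariate and 38 at a threshold of 0.01. With the replicate block it was 30, with 1 UGT gene, Ugt36A1 (adjusted p = 0.0365 in limma). Deviations of same-numbered arrays from their group means correlated at -0.29, 0.20 and -0.43. The highest value was 0.54, for Calment1/4 replicate 1 with CanS replicate 3. Deviations from a mean of 3 arrays cancel within each stock, so these values cannot show whether same-numbered arrays were paired. The list of sugar supply, transport and regulator genes had 0 calls in each of its 17 alternatives. The causes were not tested.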
